A study of Caenorhabditis elegans with 6 samples.

Results

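The UDP-glucuronosyltransferase (UGT) family of Caenorhabditis elegans was followed in whole fourth-stage (L4) larvae of 2 genotypes. Its members were all probe sets whose platform annotation names a single gene called ugt- and a number, which gave 68 probe sets of 64 genes among the 22625 probe sets of the array. ugt-34, ugt-49 and ugt-65 are in the reference but have no probe set of their own here. Wild-type worms of strain N2 were set against atfs-1(et18) worms, each in 3 biological replicates. Both were grown on solid medium with E. coli OP50 after bleach synchronisation. When mitochondria are stressed, the bZIP protein ATFS-1 switches on the mitochondrial unfolded protein response. The allele et18 of its gene is known as a gain-of-function mutation, and 1 allele was studied. The design asks how transcripts differ between worms that carry this allele and wild-type worms on the same food. Because each sample was whole worms, fewer cells of a type and less RNA per cell cannot be told apart in any value below.

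UGTs are membrane enzymes of the endoplasmic reticulum that transfer a sugar from a UDP-sugar to a lipophilic acceptor. The product is more soluble in water and can be exported, so these enzymes form the conjugating step of detoxification, after oxidation by cytochromes P450 and before export by ABC transporters. Nematodes carry a large UGT family, many of whose genes lie side by side on the chromosomes, and the intestine is a main site of detoxification in the worm. The acceptors of the single worm enzymes named here are mostly not known, so no separate role is given for each.

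The 6 arrays had the same trimmed mean signal, 500.2, and correlated at 0.937 to 0.973 within a genotype and 0.895 to 0.941 between genotypes over the probe sets tested. The atfs-1 transcript had signals of 207, 284 and 277 in wild-type and 346, 355 and 289 in atfs-1(et18) arrays, with a log2 change of 0.38 ± 0.20 (SE, limma adjusted p = 0.400). The allele is not a deletion, so this level does not check the labels. Summed signals of the 14 intestine markers on the array ran from 119966 to 165851 in wild-type and from 105059 to 152039 in atfs-1(et18) arrays, and 2 of the 14 fell (14.3%, against 1.37% of all genes tested). Those of the 12 muscle and pharynx markers (98208 to 110829 against 77423 to 94562) and of the 12 neuron markers (10236 to 11773 against 9928 to 10116) did not overlap between genotypes, although limma called no gene of either list. Unadjusted p was under 0.05 for 1 of 12 muscle and pharynx genes (8.33%) and for 3 of 11 neuron genes (27.3%), against 17.4% of all genes tested. Changes were below 0 for all 12 muscle and pharynx genes (median log2 change -0.30) and for 10 of 11 neuron genes (-0.40). The same held for 10 of 14 intestine (-0.14), 9 of 14 hypodermis and cuticle (-0.06) and 5 of 8 sperm genes (-0.04). Of the 12 germline genes 11 had changes above 0 (0.21), and limma called no germline or sperm gene. All 5 yolk protein genes measured fell, from summed signals of 6925 to 11409 to summed signals of 1091 to 1686. The part of these differences in the UGT values was not tested.

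A probe set was tested if at least 3 of the 6 arrays gave it a signal over that array's 40th percentile. Of the 68 UGT probe sets, 50 from 46 genes passed this filter, and 18 from 18 further genes did not. On all 6 arrays 37 members were above that percentile and 14 were below it. Among the 50, ugt-43 passed through the mutant arrays alone and ugt-53 through the wild-type arrays alone, so those genes had to differ between the genotypes to do so. A signal depends on the probes as well as the transcript, so signals of different probe sets are not compared as transcript levels.

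Of the 50 UGT probe sets tested, 13 passed the limma threshold (adjusted p under 0.05 over all 13792 probe sets tested), which is 26.0%, against 3.93% of all probe sets tested. Higher in atfs-1(et18) were 10 of them (20% against 2.63%), from the genes ugt-2, ugt-5, ugt-19, ugt-25, ugt-43, ugt-44, ugt-50, ugt-61 and ugt-62. Lower were 3 (6% against 1.30%), ugt-12, ugt-53 and ugt-60. Without ugt-43 and ugt-53, a count added after seeing the data, 11 of 48 were called (22.9%), 9 higher and 2 lower, against 3.61% of the 13621 probe sets above the percentile on at least 1 array of each genotype. The family was thus called in both directions, in 9 genes up and 3 down of its 64. Its median log2 change was -0.09, against -0.01 over all probe sets tested, with 23 changes above 0 and 27 below it. With no filter this median was 0.11 and with a filter at the 60th percentile 0.12, so its sign is not settled, and leaving out wild-type replicate 2 (0.003), wild-type replicate 3 (0.002) or the second atfs-1(et18) replicate (0.05) also turned it above 0. A change of at least 2-fold in either direction was seen in 14 of the 50 (28%), against 5.51% of all probe sets tested, whether or not it passed the test. Both passing and at least 2-fold were 10 of the 50 (20%, against 2.78%). All 13 called probe sets had 3 wild-type arrays that did not overlap the 3 mutant arrays, as did 7 that were not called. Such separation was found for 40% of the tested members and for 23.3% of all probe sets tested. The shares for changes of at least 2-fold and for separation include ugt-43 and ugt-53, and were not redone without them.

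**Figure D1:**
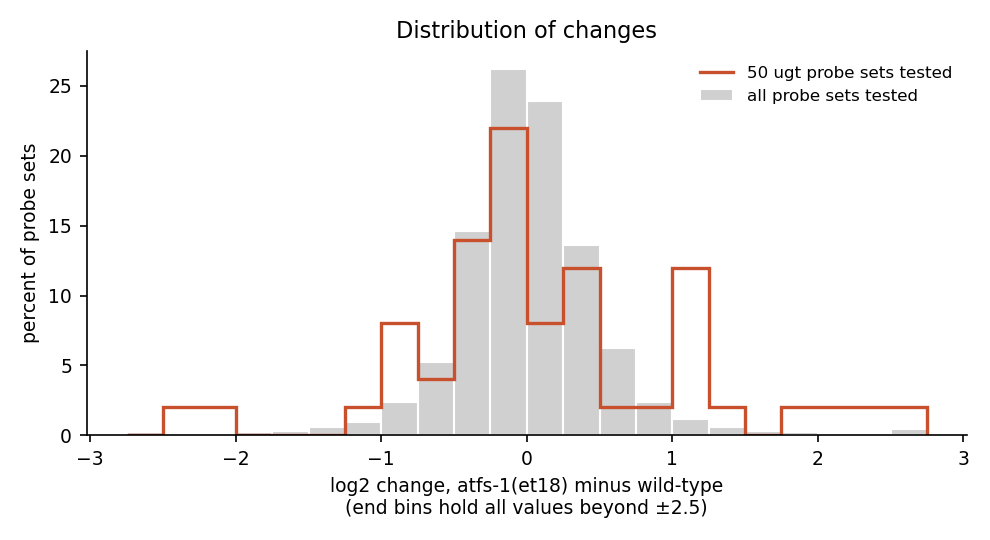
Share of probe sets (percent) in bins of 0.25 of the log2 change, atfs-1(et18) minus wild-type, for the 50 UGT probe sets tested (outline) and all probe sets tested (grey bars). Beyond a change of 1 in either direction lie 28% of UGT probe sets and 5.51% of all probe sets, and the outline has its highest bin on that side just above 1. The 28% includes ugt-43 and ugt-53, which had to differ between the genotypes to be tested.

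Among the members that rose, ugt-19 (K08B4.3, chromosome IV) had the smallest p. Its signals were 203, 304 and 346 in wild-type and 1141, 1336 and 1373 in atfs-1(et18) arrays. The lowest mutant signal was above every wild-type signal by a wide margin, and the rise was 4.61-fold (log2 change 2.21 ± 0.22 SE, limma adjusted p = 0.00111). ugt-62 (M88.1, chromosome III) had signals of 2534, 2696 and 2628 in the wild type, which lay close together, and of 6689, 5096 and 6050.4 in the mutant. It rose 2.26-fold (1.17 ± 0.14, adjusted p = 0.00316). For ugt-61 (F39G3.1, chromosome V) the signals went from 336, 390.1 and 452 to 952, 957 and 847, a rise of 2.35-fold (1.23 ± 0.17, adjusted p = 0.00565). These 3 genes were called under all 17 alternative settings, and each is measured by a probe set named as specific to 1 transcript.

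The gene ugt-50 (T07C5.1, chromosome X) is measured by 3 probe sets, which did not give the same call. The first had signals of 339.97, 505 and 439.7 in wild-type and 1110.5, 1055 and 1204 in atfs-1(et18) arrays and rose 2.65-fold (log2 change 1.41 ± 0.18 SE, limma adjusted p = 0.00448). The second went from 102, 147 and 162 to 289.9, 385 and 270.2, a 2.31-fold rise (1.21 ± 0.25, adjusted p = 0.0348). The third is the one named as specific to 1 transcript, and its signals of 874, 1248 and 1733 in wild-type and 1691, 3214 and 1476 in mutant arrays overlapped. Its change of 0.70 ± 0.33 did not pass (adjusted p = 0.332). The difference between the changes of the first and the third was 0.71 on the log2 scale (two-sided exact permutation test over the 6 arrays, p = 0.3), and between the second and the third it was 0.51 (exact p = 0.1, the smallest p that 3 against 3 arrays allow). Over the 7 pairs of probe sets compared in this way, the lowest adjusted p was 0.233. Each pair was chosen for a called member, and no p can be under 0.1, so these tests cannot decide whether the changes differ. The call of the second ended without any 1 array other than wild-type replicate 1 (adjusted p = 0.0536 to 0.132), whereas that of the first held under all 16 alternatives in which it was tested.

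The neighbours ugt-43 and ugt-44 (F01D4.1 and F01D4.2, chromosome IV) were both called higher. ugt-44 went from signals of 773, 1049 and 1844 to 3562, 5572 and 3416 in the mutant. Both genotypes spread widely, but they did not overlap, and the rise was 3.57-fold (log2 change 1.83 ± 0.32 SE, limma adjusted p = 0.0156). Its call ended without the second wild-type array (adjusted p = 0.0876) and likewise without the first mutant array (0.0657). ugt-43 was below the 40th percentile on every wild-type array, with signals of 23.7, 4.27 and 3.28, and above it on every mutant array, with 98.5, 155 and 125. Against that percentile the mutant signal was at least 1.75-fold higher. Since the filter kept ugt-43 only because it was high in the mutant, the limma fit with no filter is the one to read (adjusted p = 0.0305). With the filter its adjusted p was 0.0348, and 0.0613 to 0.223 without any 1 array other than wild-type replicate 1.

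Smaller rises were found for ugt-2, ugt-25 and ugt-5. ugt-2 (AC3.8, chromosome V) went from signals of 271, 399.8 and 272 to 587, 923 and 583, a 2.21-fold rise (log2 change 1.14 ± 0.25 SE, limma adjusted p = 0.0391). Its call ended without any 1 of the 6 arrays (adjusted p = 0.0532 to 0.122). ugt-25 (C10H11.3, chromosome I) went from 383, 273 and 252 to 581, 542 and 832, which is 2.15-fold (1.11 ± 0.24, adjusted p = 0.0373), and its call ended without any 1 array other than wild-type replicate 1 (0.0613 to 0.156). ugt-5 (ZC455.6, chromosome V) had signals of 977, 1089 and 1140.5 in wild-type and 2161, 2136 and 1686 in mutant worms, a rise of 1.86-fold (0.89 ± 0.16, adjusted p = 0.0171). That call ended without wild-type replicate 2 (0.0776), atfs-1(et18) replicate 1 (0.109) or atfs-1(et18) replicate 2 (0.0723). All 3 genes kept mutant signals above each wild-type signal.

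Among the members that fell, ugt-53 (T03D3.1, chromosome V) had signals of 218, 308 and 243 in wild-type and 58.5, 55.5 and 46.2 in atfs-1(et18) arrays. No mutant signal reached its array's 40th percentile, so the fall was at least 3.75-fold. The filter kept ugt-53 only because it was high in the wild type, and the limma fit with no filter gave an adjusted p of 0.00502. ugt-12 (T19H12.9, chromosome V) went from 1628, 1935 and 2255 to 982, 988 and 939, so that the mutant signals lay within a narrow range below every wild-type signal. On the log2 scale it fell by 0.99 with an SE of 0.16 (adjusted p = 0.0117), a call that ended without wild-type replicate 2 (0.0646), atfs-1(et18) replicate 1 (0.0690) or atfs-1(et18) replicate 3 (0.0560). ugt-60 (C07A9.6, chromosome III) went from 695, 669 and 703 to 424, 420.4 and 369, with tight replicates in both genotypes. On the log2 scale it fell by 0.77 with an SE of 0.15 (adjusted p = 0.0287), and the call ended without any 1 array other than wild-type replicate 1 (0.0877 to 0.119). Centring each array on its median also ended the calls of ugt-12 (0.0515) and ugt-60 (0.0724) and, among the genes that rose, of ugt-2 (0.0762), ugt-5 (0.0633) and the second probe set of ugt-50 (0.0744).

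**Figure D2:**
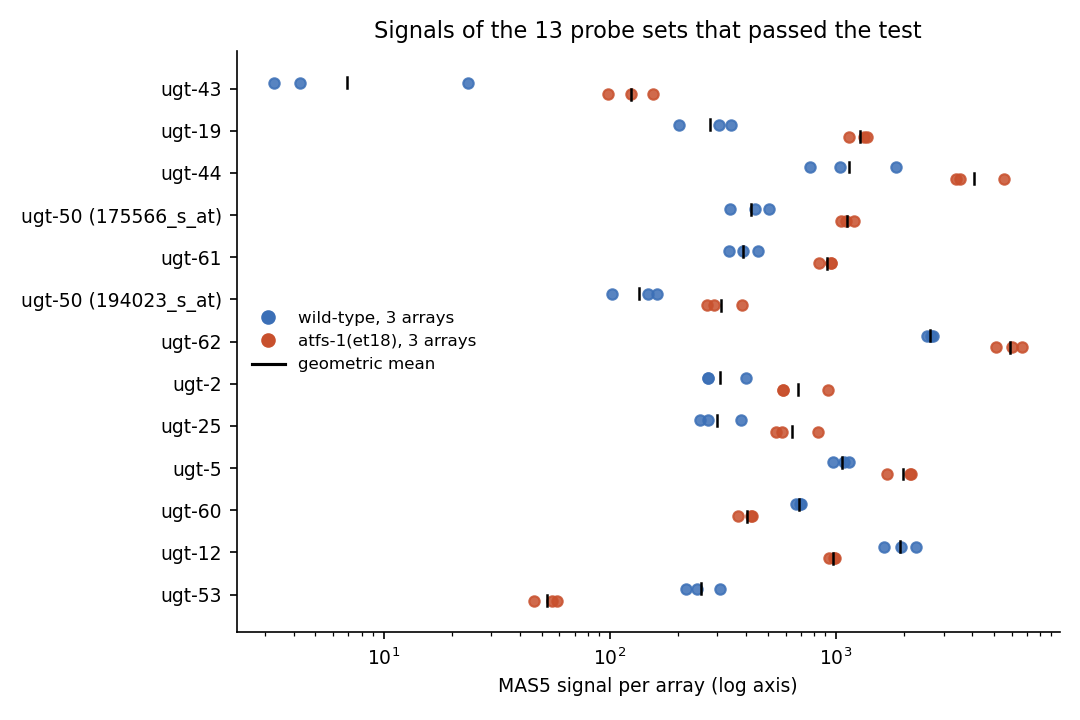
MAS5 signal on each array (log axis) for the 13 UGT probe sets that passed the test, ordered by log2 change, with 3 wild-type (blue) and 3 atfs-1(et18) arrays (orange) and the geometric mean as a black line. The upper ugt-50 row is its first probe set and the lower its second. In each row the colours do not overlap, and the wild-type signals of ugt-43 (3.28 to 23.7) have the widest spread.

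Probe sets with names that mark them as able to bind several transcripts account for 15 of the 68 members and for 5 of the 13 called. These 5 belong to ugt-5, ugt-12, ugt-60 and ugt-50, which has a pair of them. Their values may hold signal from related transcripts, so they are less certain for the named gene than the other 8. Sequences of the probes were not used here.

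Of the 37 tested members that did not pass, 28 had a log2 change within 0.5 of 0. The 8 with the smallest p include 5 higher and 3 lower changes. ugt-51 came nearest, with signals of 123, 99.2 and 133 in wild-type and 239, 307 and 182 in atfs-1(et18) arrays. The genotypes did not overlap (log2 change 1.02 ± 0.26 SE, limma adjusted p = 0.0799), and the probe set was called with array weights (0.0152). ugt-45 had wild-type signals of 14.5, 80.5 and 11.5, of which only the second lay above the 40th percentile of its array, and mutant signals of 167, 85.3 and 113. Its change of 2.30 ± 0.74 (adjusted p = 0.155) passed without wild-type replicate 2 (0.0397). ugt-33 had signals of 140.5, 216 and 95.0 in wild-type and 57.5, 76.5 and 68.6 in mutant arrays, with a change of -1.09 ± 0.36 (adjusted p = 0.166), and was called with array weights (0.0289). The other changes were -0.35 ± 0.14 for ugt-22, 0.41 ± 0.17 for ugt-24, -0.99 ± 0.46 for ugt-11 and 0.40 ± 0.20 for ugt-21, beside the third probe set of ugt-50.

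Several members with high signals did not pass the test. ugt-22 (C08F11.8) had signals of 4246, 4176 and 4544 in wild-type and 3869.6, 2955 and 3399 in atfs-1(et18) arrays, which do not overlap, but its change did not pass (limma adjusted p = 0.263). ugt-17 (C08B6.1) had 1729, 2605 and 3273 against 2768, 3157 and 2154, and a change of 0.12 ± 0.25 that turned below 0 in 2 of 16 alternatives. ugt-23 (C17G1.3) had 1985, 3670.02 and 3375 against 2005, 2725 and 1728, with overlapping genotypes and a change of -0.46 ± 0.26 (adjusted p = 0.421, and 0.0434 with array weights). ugt-26 (C10H11.6) had 1469.8, 2028 and 2874 against 1975, 2139.98 and 1413, and a change of -0.17 ± 0.26. The widest error of all tested members was that of ugt-57 (F01E11.1), whose signals were 323, 92.1 and 48.6 in wild-type and 101, 2.11 and 102 in mutant arrays (change -2.02 ± 1.43).

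**Figure D3:**
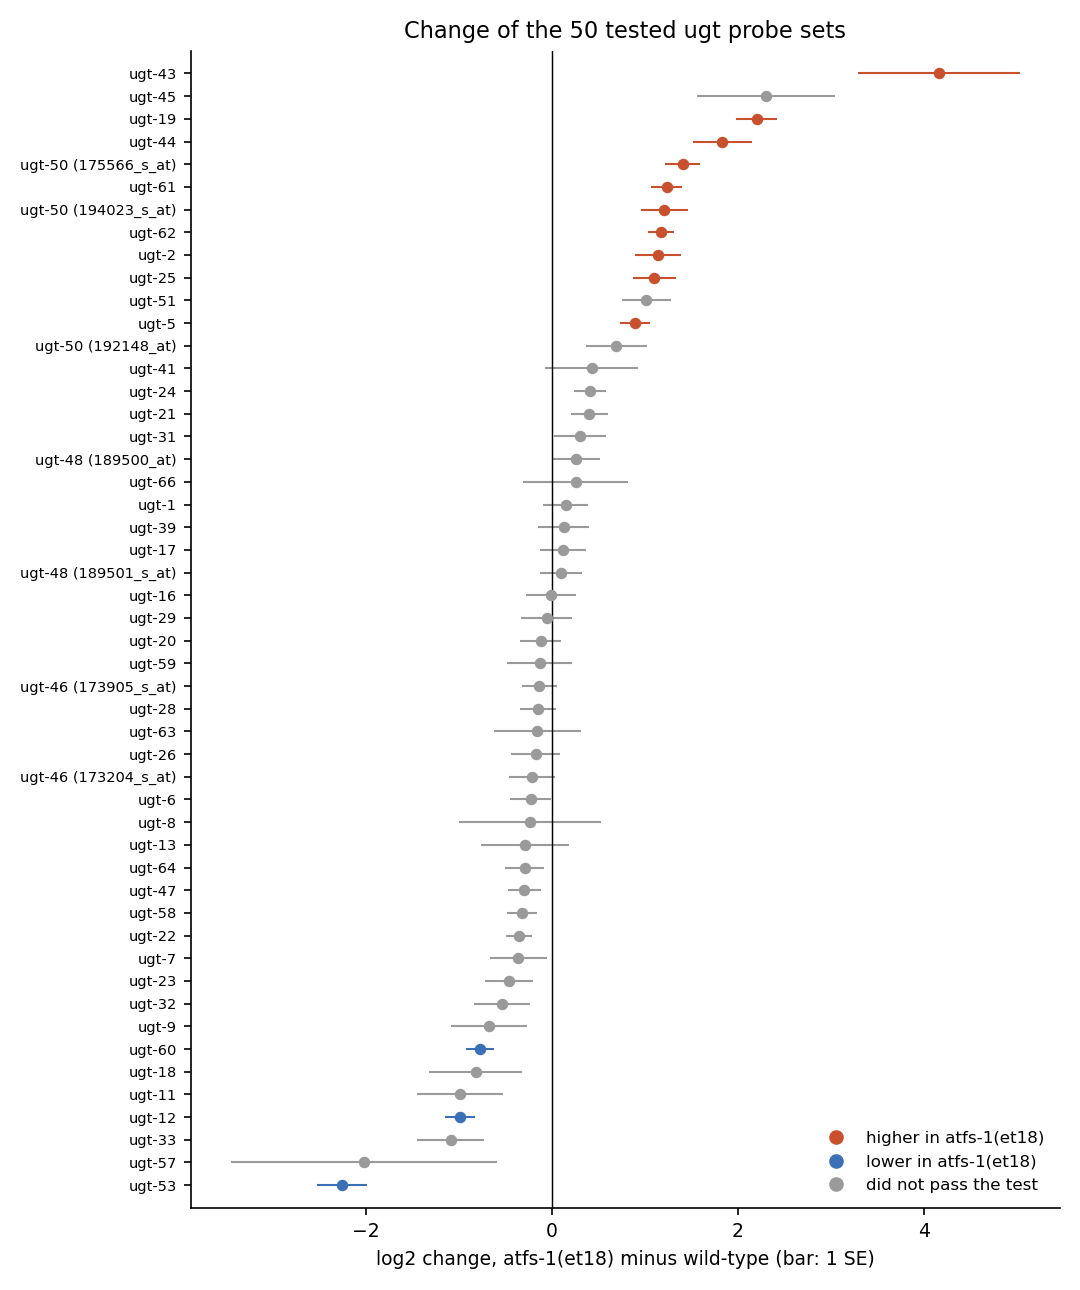
Log2 change, atfs-1(et18) minus wild-type, of the 50 UGT probe sets tested, with bars of 1 SE. The 10 probe sets that rose lie between 0.89 (ugt-5) and 4.16 (ugt-43, whose wild-type signals are below the 40th percentile), the 3 that fell lie between -2.25 (ugt-53, whose mutant signals are below it) and -0.77 (ugt-60), and grey points did not pass the test.

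The 18 members that were not tested had signals between 1.59 and 109. In 4 of them (22.2%) the genotypes did not overlap, against 11.3% of all 8756 probe sets not tested. ugt-52 had 15.6, 40.6 and 24.2 in wild-type and 51.5, 77.5 and 109 in atfs-1(et18) arrays, and ugt-15 had 45.4, 47.5 and 15.8 against 4.03, 2.84 and 5.66. ugt-4 and ugt-14 were higher in the mutant, at signals of at most 51.9. With no filter, none of these 4 passed (limma adjusted p = 0.112 for ugt-15, 0.254 for ugt-52, 0.467 for ugt-14 and 0.574 for ugt-4), and the family had 9 probe sets higher and 3 lower among 68 (17.6%, against 2.16% of all probe sets in that fit).

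Of the 64 genes measured, 40 are on chromosome V, 11 on chromosome IV, 5 on I, 4 on X, 3 on III and 1 on II. In the gene table of assembly WBcel235, 31 of the 67 family genes lie in 10 runs with no other protein-coding gene between them. Of the 12 called genes 6 lie in such runs and 6 do not, a share near that of the whole family. In 4 of the 5 runs that held a called gene, only 1 gene was called, but ugt-27, ugt-3 and ugt-4 in these runs were not tested. Next to ugt-19, the gene ugt-20 (K08B4.4) had signals of 203, 223 and 189.6 in wild-type and 233, 159 and 181 in atfs-1(et18) arrays, a change of -0.12 ± 0.22. The log2 difference between ugt-19 and ugt-20 was 0.005, 0.44 and 0.87 on the wild-type arrays and 2.29, 3.07 and 2.92 on the mutant arrays, so the change of ugt-19 was greater by 2.32 (two-sided exact permutation p = 0.1, the smallest possible). ugt-1 (AC3.7), next to ugt-2, had signals of 582, 344 and 348 against 479.5, 389 and 513 and a change of 0.15 ± 0.24, and the changes differed by 0.99 (exact p = 0.2). ugt-28 (C10H11.4), next to ugt-25, had a change of -0.14 ± 0.19, and the changes differed by 1.25 (exact p = 0.1). These pairs were chosen for their called gene and no p can be under 0.1, so the tests cannot decide whether neighbours changed differently. In the same run as ugt-5, ugt-6 had a change of -0.23 ± 0.22, while ugt-4 and ugt-3 were below the 40th percentile on all arrays. Only the run of ugt-43 and ugt-44 held 2 called genes. The change of ugt-44 minus that of ugt-43 was -2.33 (exact p = 0.3), a value that rests on wild-type signals of ugt-43 below the 40th percentile. The longest run, 7 genes from ugt-11 to ugt-13, held no called gene, but ugt-10, ugt-67 and ugt-14 in it were not tested.

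**Figure D4:**
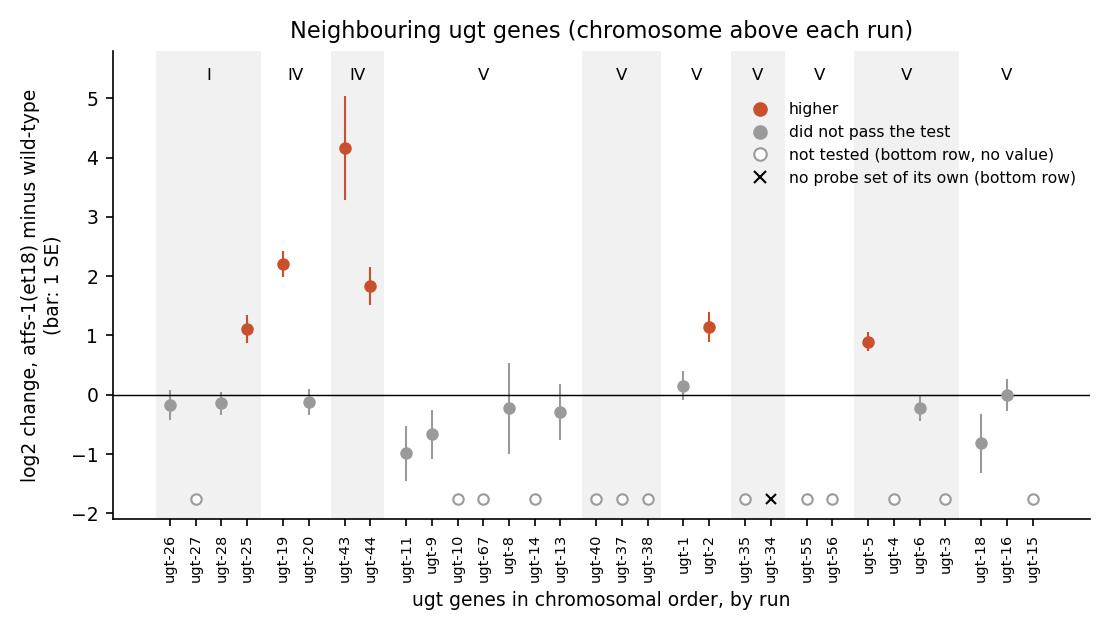
Log2 change, atfs-1(et18) minus wild-type, with bars of 1 SE, for the family genes that lie side by side, in chromosomal order within each of 10 runs, with open circles and crosses in the bottom row for genes with no tested value. In 4 runs a single gene is called (ugt-25, ugt-19, ugt-2 and ugt-5), and only the run of ugt-43 and ugt-44 has 2.

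Signals of the family also varied within the genotypes. In 19 of the 50 tested probe sets (38%) wild-type replicate 1 was the lowest wild-type array and atfs-1(et18) replicate 3 the lowest mutant array, against 16% of all probe sets tested. The intestine markers had the same pattern, with a mean 0.30 below the wild-type mean on the first of these arrays and 0.25 below the mutant mean on the second (log2). The opposite pattern, highest on both arrays, was found in 9 members (18%, against 26.6% of all probe sets tested) and in the mean of the 12 germline markers, which lay 0.56 and 0.19 above. ugt-66 was 1 of these 9, with signals of 369, 221 and 122 in wild-type and 308, 111 and 497 in atfs-1(et18) arrays. Another was ugt-8, with 216, 92.3 and 58.9 against 113, 27.9 and 231. On atfs-1(et18) replicate 2 the germline markers deviated by a mean of -0.204 (log2) from the mutant mean. There ugt-1 (-0.2352), ugt-25 (-0.2394), ugt-41 (-0.3851) and ugt-63 (-0.6752) were below the mutant mean. So were the rest of the 9 members, ugt-9 (-0.8827), ugt-13 (-0.9819), ugt-66 (-1.215), ugt-8 (-1.689) and ugt-57 (-3.724). A mean of 12 genes levels out the extremes of single genes, so these values cannot be compared with that of the germline markers. Summed signals of the sperm markers had the opposite pattern too (8474, 5254 and 4593 in wild-type, 6153, 4677 and 7847 in atfs-1(et18) arrays). The muscle and pharynx marker myo-1 also had the opposite pattern (3160, 1450 and 824 against 1096, 122 and 1477), as had tnc-2 (1227, 425 and 220 against 420, 75.9 and 489). The other genes of that list did not. Of them unc-54, lev-11, mup-2 and pat-10 had the first pattern, lowest on both arrays, so that pattern was not limited to the intestine markers. Of the 13 called probe sets 7 followed the first pattern (53.8%) and 1, ugt-25, the second (7.69%). The shares among all called probe sets of the array were not counted. With both arrays left out together, a setting chosen after seeing the data, 8 members were called higher and 2 lower, and 3.89% of all probe sets tested were called. The part of tissue make-up in these patterns was not tested.

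**Figure D5:**
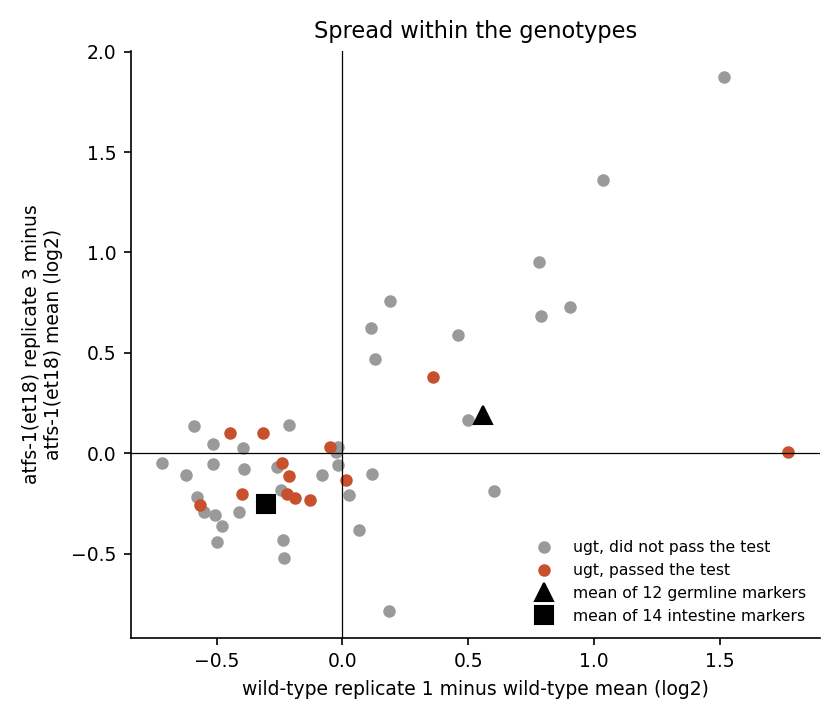
For each of the 50 UGT probe sets tested, the log2 deviation of wild-type replicate 1 from the wild-type mean (horizontal axis) and of atfs-1(et18) replicate 3 from the mutant mean (vertical axis). The mean of the intestine markers (square, -0.30 and -0.25) lies at lower left among many UGT probe sets, and the mean of the germline markers (triangle, 0.56 and 0.19) lies at upper right. By summed signal the sperm markers were also highest on both arrays.

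Genes of the neighbouring steps of detoxification were counted with 1 probe set a gene, and over all 10613 genes tested in this way 4.06% were called. Among cytochromes P450, the oxidising enzymes, 6 of 42 rose and 3 fell (21.4% called), with a median log2 change of 0.01. Of those called, cyp-13A8 and cyp-14A4 passed the filter through the mutant arrays alone and cyp-35D1 through the wild-type arrays alone. Those genes had to differ between the genotypes to be tested, and the P450 share was not redone without them. Of the glutathione S-transferases, which conjugate glutathione, 1 of 25 rose (gst-29) and 1 fell (gst-20), with 8% called and a median of -0.19. Unadjusted limma p was under 0.05 for 14 P450 genes (33.3%) and 9 glutathione S-transferase genes (36%), against 17.4% of all genes tested. Among the UGT probe sets tested it was so for 36%, against 17.2% of all probe sets tested. These shares include cyp-13A8, cyp-14A4, cyp-35D1, gst-14, gst-16, ugt-43 and ugt-53, which the filter kept through the arrays of 1 genotype alone. Of 18 ABC transporters of the P-glycoprotein and MRP families, 1 rose and 0 fell. This was pgp-9, with signals of 422, 446 and 476 in wild-type and 1054, 1185 and 881 in atfs-1(et18) arrays (log2 change 1.21 ± 0.17 SE, limma adjusted p = 0.00587). Of 5 genes linked to the supply of UDP-glucuronate, limma called 0 (1 at an unadjusted p under 0.05, or 20%, against 17.4% of all genes). The smallest p among these were those of D1005.2 (-0.85 ± 0.30, adjusted p = 0.196) and pgm-1 (-0.37 ± 0.25, adjusted p = 0.506). Of the 5 changes 2 were above 0 and 3 below it. The UDP-glucose dehydrogenase gene sqv-4, whose product makes UDP-glucuronate, changed by 0.07 ± 0.15. Of 15 genes of regulators linked to xenobiotic or stress responses limma also called 0 (2 at an unadjusted p under 0.05, or 13.3%, against the same 17.4%). The smallest p among them were those of pqm-1 (1.07 ± 0.30, adjusted p = 0.107) and hlh-30 (0.72 ± 0.24, adjusted p = 0.162).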

How the data were processed

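RNA of 6 whole-worm samples was labelled with biotin from 2 ug of total RNA each and hybridised to 1 Affymetrix array per sample, per the labels. The authors made the deposited intensity of each probe set, on a linear scale, with MAS5, per the submitters' processing notes; its version is not given in the sources used here, and detection calls were not used. MAS5 is known to correct probes by their mismatch partners, and ratios of dim probe sets are uncertain. The number of arrays limits the precision.

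Signals were taken to log2 with no offset. Control probe sets (77) did not enter, and probe sets above the 40th percentile of their array on at least 3 arrays were tested (13792 of 22548). The two-sided test of mutant minus wild-type used limma 3.58.1 in R 4.3.3, by lmFit and eBayes (trend on intensity), and p was adjusted by Benjamini-Hochberg over all probe sets tested. A gene below that percentile on all arrays of a genotype was given a bound against it. All 68 members matched the gene table of WBcel235; coordinates are left out, since no build is named. The rule for naming members was every called probe set, the 8 next by p, the 6 with the highest signals, further probe sets and neighbours of called genes; ugt-3, ugt-4, ugt-6, ugt-8, ugt-14, ugt-15, ugt-52, ugt-57 and ugt-66 were singled out after their values were seen, as were sqv-4 and the pattern within genotypes. The members and lists were chosen with earlier results of these data known.

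Deviations from the genotype means correlated at 0.171, 0.175 and -0.397 between arrays of the same replicate number, so the numbers were not taken to pair the samples. Between arrays of different number the correlations ran from -0.501 (wild-type 1 with mutant 2) to 0.478 (wild-type 1 with mutant 3). Such shared variation was not removed first, so this check cannot decide on a pairing. Tested on simulated arrays of both genotypes (13792 probe sets, of which 200 were changed), the method found 36% of the changes of 2-fold and 69% of those of 4-fold. Alternatives covered scaling, an offset, the filter, the variance prior, array weights, a replicate block, probe sets able to bind several transcripts left out, and each array left out; with arrays left out the same probe sets were tested. Plots were made in Python 3.11.15 (matplotlib 3.10.9).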

Additional observations from a re-analysis of the deposited data

How the results depend on the processing

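Of the 13 called UGT probe sets, 5 kept their call under every alternative in which they were tested (ugt-19, ugt-61, ugt-62, the first probe set of ugt-50 and ugt-53, which the filter kept only through its wild-type signals), and 8 lost it under at least 1; none of the 13 changed direction. The count of 10 higher members was 6 without an intensity trend and 6 with the replicate block, and ran from 4 to 9 with 1 array left out. The count of 3 lower members was 1 with median centring, 5 with array weights and 1 once multi-transcript probe sets were dropped, a setting that removes 2 of the 3 by its construction, and ran from 1 to 3 with 1 array left out. Over all probe sets the 542 calls became 1637 with array weights, 336 with the replicate block, 313 with the multi-transcript ones dropped (8377 tested), and 202 to 871 with 1 array left out. The cause was not tested for the other settings. The block ended the calls of ugt-5, ugt-25, ugt-43, ugt-60 and the second probe set of ugt-50 (adjusted p = 0.0584, 0.0896, 0.0777, 0.0972 and 0.0719); the samples share only a number. Median centring ended the calls of ugt-2, ugt-5, ugt-12, ugt-60 and the second probe set of ugt-50 (0.0762, 0.0633, 0.0515, 0.0724 and 0.0744), and no intensity trend those of ugt-2, ugt-5, ugt-25, ugt-60 and the same ugt-50 probe set (0.0777, 0.0519, 0.0729, 0.0538 and 0.0538). Quantile normalization ended those of ugt-2 (0.0666) and that ugt-50 probe set (0.0746), which was also lost with no filter (0.0569). Leaving out wild-type replicate 1 with atfs-1(et18) replicate 3 ended those of ugt-2, ugt-43 and ugt-60 (0.0694, 0.141 and 0.0817). Signals near background limit the values of ugt-43, ugt-45, ugt-53 and the 18 members not tested.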
